A study of Mus musculus with 6 samples.

Results

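Hif1a, Vegfa, Mif and Gpi1 are 4 of the 518 endogenous and housekeeping probes of a NanoString nCounter panel, which counts barcoded probes bound to single RNA molecules without amplification. They were chosen by name as genes of the hypoxia response and of glycolysis, together with Mif, after their levels in these 6 libraries were known. Their differences between the groups are therefore given as descriptions, with the standard error of the fit and no test. The RNA came from natural killer (NK) cells of female C57BL/6 mice, purified before RNA extraction, and each of the 3 groups held 2 libraries. The anti-TIM-3 group (replicates 1 and 2) had been expanded in an IL-15/IL-15 receptor alpha conjugate together with AgN2a-4P feeder cells and then exposed for 4 h to an antibody against TIM-3, an inhibitory receptor of NK and T cells. The untreated feeder group (replicates 2 and 3) had the same expansion and is labelled as having no treatment. The IL-15 group (replicates 1 and 3) had the conjugate alone, also with no treatment. All 3 groups shared the conjugate at 10 ng/mL and a culture of 12 days, and the feeder cells, a mouse neuroblastoma line carrying added costimulatory ligands, had been irradiated with 100 Gy. The culture protocol describes the feeder cells for all samples, so that the IL-15 group is set apart by its expansion label alone.

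The protocols name an IgG2a isotype control antibody, whereas the labels of the untreated feeder libraries give no treatment. The antibody and the 4 h incubation therefore cannot be told apart here. Nothing in the labels says that libraries of a group came from separate animals or cultures. The errors rest on the spread between the 2 samples of each group, which may be technical. Their variance was pooled over the 3 groups and moderated over the tested probes, so they are not the spread of any single group. In bulk RNA of this kind, fewer cells carrying a transcript and less RNA per cell cannot be told apart either.

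HIF-1 alpha, the protein of Hif1a, is the oxygen-regulated subunit of the transcription factor HIF-1. Its amount is set mainly after translation, by prolyl hydroxylation and VHL-dependent degradation, so that its mRNA does not report its activity. Vegfa encodes vascular endothelial growth factor A, a secreted angiogenic ligand and a well known HIF-1 target. Mif encodes macrophage migration inhibitory factor, a cytokine that binds CD74 and the chemokine receptors CXCR2 and CXCR4. Gpi1 encodes glucose-6-phosphate isomerase, which interconverts glucose-6-phosphate and fructose-6-phosphate in glycolysis and, when secreted, acts as autocrine motility factor. In lymphocytes, cytokine and receptor activation is known to raise HIF-1 alpha and glycolysis also at normal oxygen.

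The stretches of 250 bases before a RefSeq start of each gene (build GRCm38.p6, read on the gene's own strand) are shown because HIF-1 binds a short core sequence and because the 4 genes are grouped here under its name. Capitals mark ACGTG or GCGTG on either strand, the cores of the hypoxia response element. Overlapping matches appear as 1 run of capitals. All 4 genes were found in the RefSeq promoter table. The windows lie at chr12:73907617-73907866 on the plus strand for Hif1a, and on the minus strand at chr17:46032378-46032627 for Vegfa, chr10:75860278-75860527 for Mif and chr7:34230337-34230586 for Gpi1.
Hif1a: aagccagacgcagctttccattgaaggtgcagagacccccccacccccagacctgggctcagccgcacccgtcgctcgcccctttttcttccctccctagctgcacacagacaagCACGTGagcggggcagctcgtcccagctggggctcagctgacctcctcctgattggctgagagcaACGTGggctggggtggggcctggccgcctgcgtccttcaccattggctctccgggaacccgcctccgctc
Vegfa: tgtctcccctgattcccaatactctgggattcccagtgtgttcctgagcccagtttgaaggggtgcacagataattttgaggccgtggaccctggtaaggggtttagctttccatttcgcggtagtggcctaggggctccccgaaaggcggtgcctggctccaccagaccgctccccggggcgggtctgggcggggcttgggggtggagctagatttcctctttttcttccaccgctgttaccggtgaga
Mif: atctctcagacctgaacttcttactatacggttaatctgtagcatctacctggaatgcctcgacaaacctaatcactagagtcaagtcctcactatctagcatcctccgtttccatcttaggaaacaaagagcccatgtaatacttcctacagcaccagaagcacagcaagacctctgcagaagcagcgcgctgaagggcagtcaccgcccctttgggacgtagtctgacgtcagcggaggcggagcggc
Gpi1: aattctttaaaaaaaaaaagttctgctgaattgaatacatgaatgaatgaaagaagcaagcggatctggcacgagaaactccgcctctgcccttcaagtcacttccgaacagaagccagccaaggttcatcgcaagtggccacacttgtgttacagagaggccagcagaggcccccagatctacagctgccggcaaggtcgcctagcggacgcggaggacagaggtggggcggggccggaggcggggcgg
The Hif1a window is the only one given for that gene and lies inside the gene, which RefSeq lists at 73901324 to 73947554 on chromosome 12, so that it is not the window of the gene's outermost start. A further RefSeq start inside Vegfa has the window chr17:46025164-46025413, also on the minus strand.
Vegfa, further start: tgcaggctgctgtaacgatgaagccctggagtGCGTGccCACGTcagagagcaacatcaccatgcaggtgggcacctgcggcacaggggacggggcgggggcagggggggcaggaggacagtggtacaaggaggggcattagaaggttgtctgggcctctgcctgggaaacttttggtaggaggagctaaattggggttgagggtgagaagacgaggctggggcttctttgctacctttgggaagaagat

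The Hif1a window held 3 matches, at positions -135, -134 and -70 from the start. The first pair overlaps in CACGTG, which is also the E-box bound by MYC and other basic helix-loop-helix factors. Within the 250 bases shown, no match lay before the first Vegfa start, before Mif or before Gpi1. Bases further upstream were not searched. The further Vegfa start had matches at -218 and -211, and Mif had 1 match after its start, at position 30, in agctgggtCACGTagctcagg. With the 50 bases after the start counted in, the first windows of 2 of the 4 genes held a match, while 43.8% of all 32851 promoter windows of 300 bases did. CACGTG was found in 7.15% of them. A match describes these letters and is not a binding site.

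The panel gave between 299485 and 441185 counts per library over its genes, recovered as whole counts from the deposited log2 values. The deposited values are on a scale that sets the mean log2 level of the 20 housekeeping probes to 9.22 in every library, and "normalised counts" below are these values without the logarithm. The 8 negative control probes averaged 4.25 to 6.13 counts per library, which is the level of a probe with no target. On the housekeeping scale the median of the 430 probes with enough counts to test was 0.47 higher (log2) in the anti-TIM-3 than in the untreated feeder libraries, and 0.70 higher than in the IL-15 libraries. The 20 housekeeping probes themselves differed between the anti-TIM-3 and untreated feeder groups by -0.77 (Eef1g) to 0.52 (Alas1) on the log2 scale. Each gene had 1 probe of its own efficiency, so a gene is compared between libraries and not with the level of another gene.

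Hif1a, the regulatory gene of the 4, was lowest with anti-TIM-3, intermediate with untreated feeder cells and highest in IL-15 alone. It had 929 and 863 normalised counts with anti-TIM-3, 1554 and 1903 with untreated feeder cells, and 3389 and 2878 with IL-15 alone. The 3 groups did not overlap, and Hif1a alone of the 4 genes had its untreated feeder libraries below both IL-15 libraries. Folds here compare means of log2 values. The anti-TIM-3 mean was 1.92-fold lower than that of untreated feeder libraries (log2 difference -0.94 ± 0.19, SE of the fit, n = 2 each). It was 3.49-fold lower than in IL-15 alone (log2 difference -1.80 ± 0.19). Between these, the untreated feeder group was 1.82-fold lower than IL-15 alone (log2 difference -0.86 ± 0.19). In that last comparison Hif1a had the 4th lowest difference of 430 probes, with a median over all probes of 0.19.

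Vegfa, the secreted ligand, lay furthest below its untreated feeder level of the 4 genes. It had 40.5 and 39.9 normalised counts with anti-TIM-3, 507 and 828 with untreated feeder cells, and 511 and 293 with IL-15 alone. Both anti-TIM-3 libraries lay far below the other 4, and the untreated feeder and IL-15 libraries overlapped. The anti-TIM-3 values rest on 36 and 23 recovered counts, with 95% Poisson intervals of 25.2 to 49.8 and 14.6 to 34.5 that cover counting error only. Both counts were above the mean of the negative controls. The anti-TIM-3 mean was 16.1-fold lower than that of untreated feeder libraries (log2 difference -4.01 ± 0.35) and 9.61-fold lower than that of IL-15 alone (-3.26 ± 0.35). The untreated feeder mean was 1.68 times that of IL-15 alone (0.74 ± 0.35), which is about the size of the gap between the 2 libraries of either group. The single probe does not separate the splice forms of Vegfa.

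Mif, the cytokine, was also low with anti-TIM-3 and nearly level between the other groups. It had 678 and 495 normalised counts with anti-TIM-3, 3090 and 4223 with untreated feeder cells, and 3213 and 3278 with IL-15 alone. The anti-TIM-3 libraries lay below all others, and both IL-15 values lay between the 2 untreated feeder values. The anti-TIM-3 mean was 6.24-fold lower than that of untreated feeder libraries (log2 difference -2.64 ± 0.24) and 5.60-fold lower than that of IL-15 alone (-2.49 ± 0.24). Untreated feeder and IL-15 libraries differed by 0.15 ± 0.24, a difference below its own error whose sign changed with the scale used.

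Gpi1, the glycolytic enzyme, had 2159 and 2132 normalised counts with anti-TIM-3, 4451 and 6603 with untreated feeder cells, and 3690 and 4028 with IL-15 alone. The groups did not overlap, with untreated feeder libraries highest and anti-TIM-3 libraries lowest. The anti-TIM-3 mean was 2.53-fold lower than that of untreated feeder libraries (log2 difference -1.34 ± 0.24) and 1.80-fold lower than that of IL-15 alone (-0.85 ± 0.24). The housekeeping probe Polr1b, of RNA polymerase I, had a difference of -1.01 in that second comparison, beyond that of Gpi1. The untreated feeder mean was 1.41 times that of IL-15 alone (0.49 ± 0.24). The 2 untreated feeder libraries themselves stood 0.57 apart on the log2 scale, so these neighbours in the order differed by less than that gap.

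**Figure D1:**
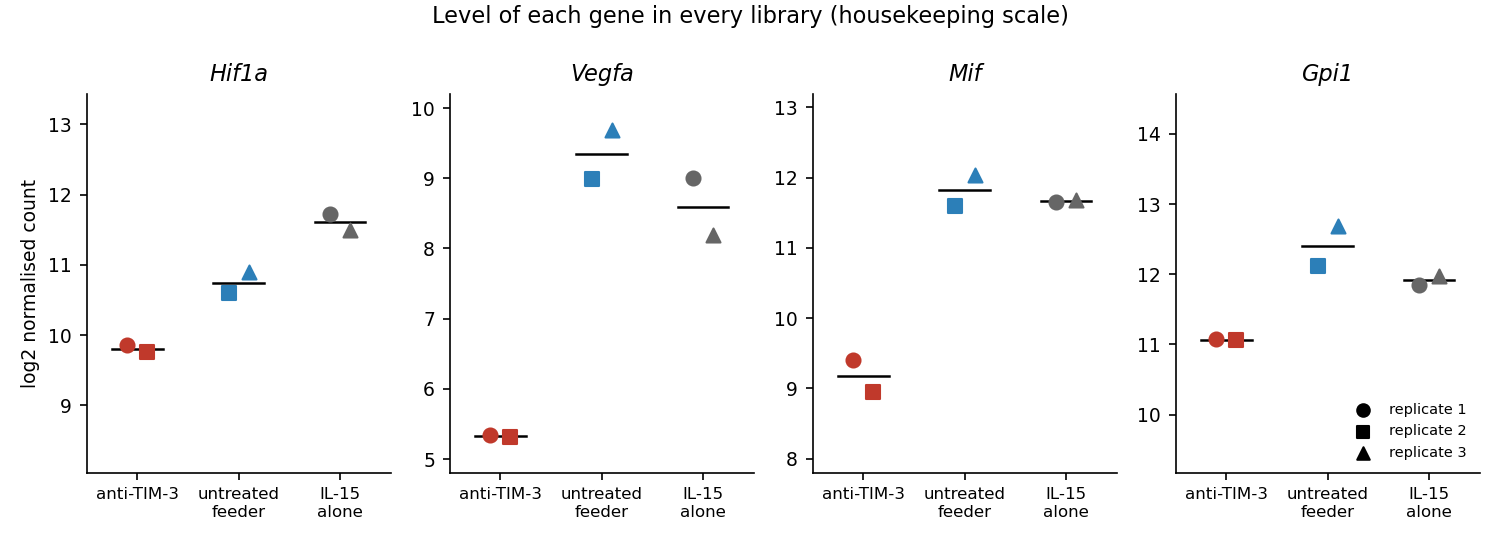
Log2 normalised counts of Hif1a, Vegfa, Mif and Gpi1 in each library, with anti-TIM-3, untreated feeder and IL-15 alone placed left to right; points are libraries and bars are means of 2. The anti-TIM-3 libraries are lowest in all 4 panels, and in the Hif1a panel alone both untreated feeder libraries also lie below both IL-15 libraries.

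The order of the 3 groups thus differed among the genes, although anti-TIM-3 was lowest in each. Hif1a averaged 896 ± 46.9 normalised counts with anti-TIM-3, 1729 ± 247 with untreated feeder cells and 3134 ± 361 with IL-15 alone (SD, n = 2 each). The other three genes had their highest mean in untreated feeder libraries. Gpi1 averaged 2146 ± 19.1 with anti-TIM-3, 5527 ± 1521 with untreated feeder cells and 3859 ± 239 with IL-15 alone. Vegfa averaged 40.2 ± 0.434 with anti-TIM-3, 667 ± 227 with untreated feeder cells and 402 ± 154 with IL-15 alone. Its anti-TIM-3 SD lies below the counting error of the 36 and 23 counts behind it, so it does not measure precision. Mif averaged 586 ± 130 with anti-TIM-3, 3656 ± 801 with untreated feeder cells and 3245 ± 46.0 with IL-15 alone. On this linear scale the SDs grew with the means for Hif1a, Vegfa and Gpi1, but not for Mif.

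Shares of all gene counts of a library include the housekeeping probes but are not scaled to them. By this measure anti-TIM-3 was again lowest for each of the 4 genes, while the order of the other groups differed for Mif. Mif made up 0.147% and 0.0952% of counts with anti-TIM-3, 0.822% and 0.950% with untreated feeder cells, and 0.911% and 1.02% with IL-15 alone. Gpi1 made up 0.468% and 0.410% with anti-TIM-3, 1.18% and 1.48% with untreated feeder cells, and 1.05% and 1.25% with IL-15 alone. By share, its untreated feeder and IL-15 libraries overlapped. Hif1a made up 0.201% and 0.166% with anti-TIM-3, 0.413% and 0.428% with untreated feeder cells, and 0.961% and 0.892% with IL-15 alone. Vegfa stood at 0.00879% and 0.00768% with anti-TIM-3, 0.135% and 0.186% with untreated feeder cells, and 0.145% and 0.0907% with IL-15 alone. By share, Mif was higher in both IL-15 libraries than in untreated feeder replicate 2, and 1 IL-15 library was above both feeder libraries.

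**Figure D2:**
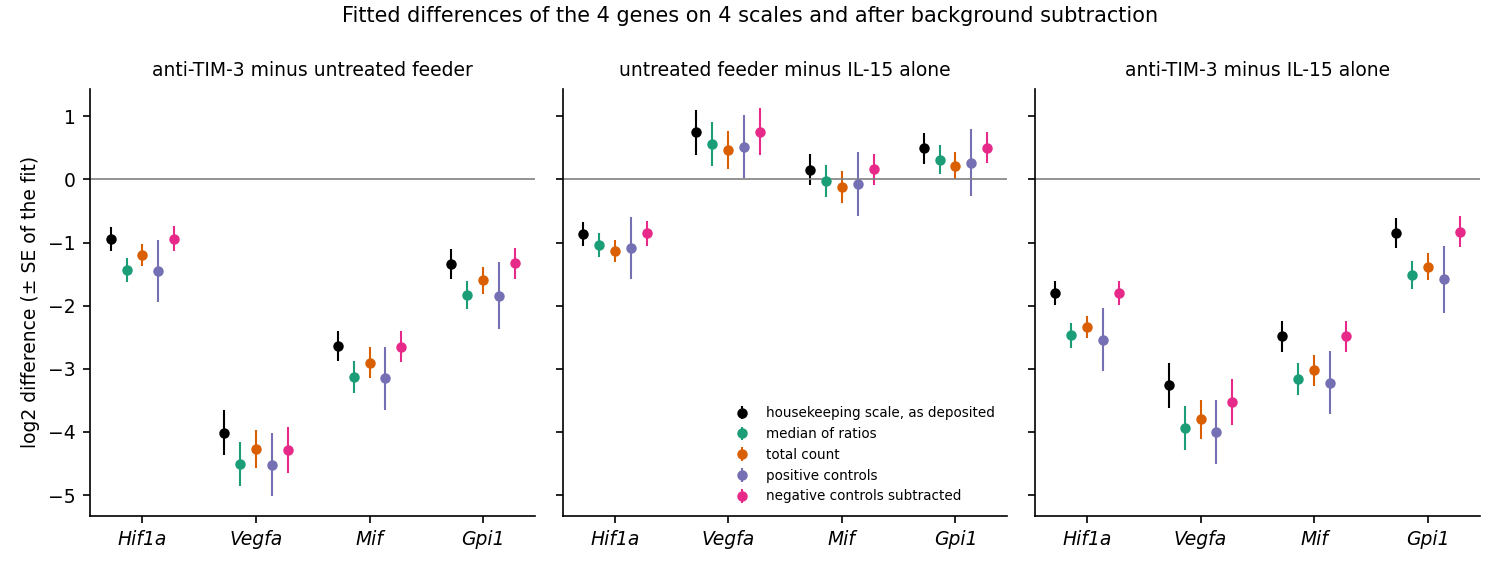
Fitted log2 differences of the 4 genes (vertical axis, bars ± SE of the fit) for the 3 comparisons, on the deposited housekeeping scale and on other scales. On every scale drawn, anti-TIM-3 lies below untreated feeder and below IL-15 alone for all 4 genes, and the difference of Mif between untreated feeder and IL-15 alone lies near 0.

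Relative to the other probes, the 4 genes sat at the low end of the comparison of anti-TIM-3 with untreated feeder libraries. Counted from the lowest difference of 430 probes, Vegfa was 7th, Mif 12th, Gpi1 26th and Hif1a 36th. With the median of all probes subtracted, the differences were -4.47 for Vegfa, -3.11 for Mif, -1.80 for Gpi1 and -1.41 for Hif1a. All 4 were among the 31 probes (7.21%) that passed an adjusted p of 0.05 (limma) as lower, while 135 (31.4%) passed as higher. All 4 were likewise among the 66 probes (15.3%) whose anti-TIM-3 libraries lay below both untreated feeder libraries, while those of 60.2% lay above both. Since these values chose the genes, nothing is read from their counts. The number of the 4 called was 2 with the replicate number as a block, 2 without anti-TIM-3 replicate 2 and 0 without untreated feeder replicate 3. The share of higher calls depends on the scale, with 53 higher and 49 lower by median of ratios, 62 and 37 by total count and 32 and 37 by positive controls. The authors' deposited table gave log2 fold changes of -0.94 for Hif1a, -4 for Vegfa, -2.6 for Mif and -1.3 for Gpi1. They are given for a second group named by number only. At their printed digits these values equal the fitted differences of anti-TIM-3 from untreated feeder libraries, and not those of the other comparisons.

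Against IL-15 alone, which shares the anti-TIM-3 libraries with the comparison above, Vegfa was 8th, Mif 13th, Hif1a 17th and Gpi1 40th from the lowest of 430 differences. All 4 passed as lower, among 30 such probes (6.98%), beside 189 higher ones (44.0%), and all 4 lay below both IL-15 libraries, as did 63 probes (14.7%), while 67.4% lay above both. The number of the 4 called was 3 with the replicate number as a block, and also 3 without either IL-15 library and without either anti-TIM-3 library, each left out alone. By scale, the split was 80 higher and 76 lower by median of ratios, 74 and 55 by total count and 47 and 47 by positive controls. Between untreated feeder and IL-15 alone, which shares libraries with both, no probe passed (0%), and 39 had an unadjusted p under 0.05 (limma). Hif1a was 1 of 25 probes (5.81%) lower in both untreated feeder libraries than in either IL-15 library, and Gpi1 was 1 of 148 (34.4%) higher in both. Nothing is read from these counts either.

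**Figure D3:**
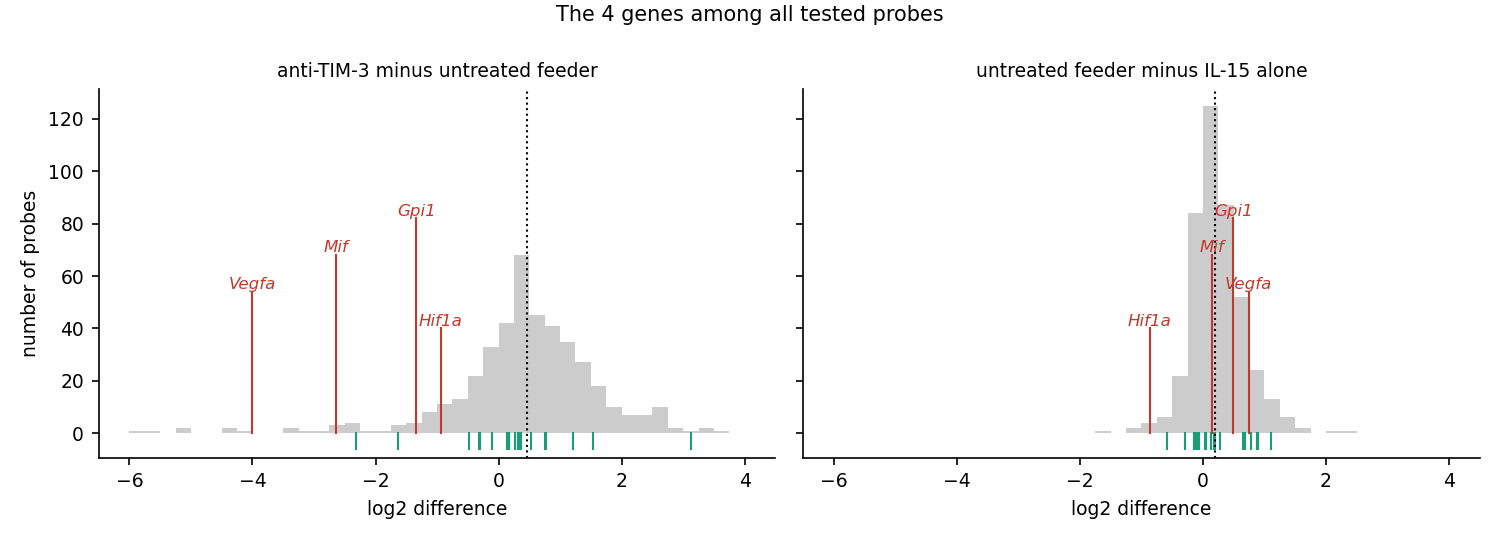
Histograms of log2 differences of all 430 tested probes for anti-TIM-3 against untreated feeder and for untreated feeder against IL-15 alone. Labelled lines mark the 4 genes, green ticks the tested pathway genes and a dotted line the median of all probes. In the comparison of anti-TIM-3 with untreated feeder the genes lie between -4.01 (Vegfa) and -0.94 (Hif1a), left of the median of 0.47.

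The ratio of 2 genes within a library is free of any scaling factor of that library, and its change between libraries shows where genes moved unequally. The log2 ratio of Vegfa to Hif1a was -4.52 and -4.43 with anti-TIM-3, -1.62 and -1.20 with untreated feeder cells, and -2.73 and -3.30 with IL-15 alone. Its 3 groups did not overlap, and the difference of anti-TIM-3 from untreated feeder libraries was -3.07. The untreated feeder libraries in turn stood 1.61 above IL-15 alone. Vegfa thus lay further below its untreated feeder level than Hif1a with anti-TIM-3, and between untreated feeder and IL-15 alone the 2 genes had differences of opposite sign.

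Mif and Gpi1 also moved unequally. The log2 ratio of Mif to Gpi1 was -1.67 and -2.11 with anti-TIM-3, -0.53 and -0.64 with untreated feeder cells, and -0.20 and -0.30 with IL-15 alone. Anti-TIM-3 differed from untreated feeder libraries by -1.30, without overlap, so that Mif lay further below its untreated feeder level than Gpi1 did. The log2 ratio of Mif to Hif1a was -0.45 and -0.80 with anti-TIM-3, 0.99 and 1.15 with untreated feeder cells, and -0.08 and 0.19 with IL-15 alone, a difference of -1.70 for anti-TIM-3 against untreated feeder cells. The ratio of Gpi1 to Hif1a was the least changed of the 6 ratios between these groups, with 1.22 and 1.30 in anti-TIM-3 libraries and 1.52 and 1.79 in untreated feeder libraries. It was 0.12 and 0.48 with IL-15 alone, so that this ratio stood 1.35 higher in untreated feeder libraries than in IL-15 alone. Those 3 groups did not overlap either.

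The log2 ratio of Vegfa to Mif was -4.06 and -3.63 with anti-TIM-3, against -2.61 and -2.35 with untreated feeder cells, a difference of -1.37. It was -2.65 and -3.49 with IL-15 alone. The ratio of Vegfa to Gpi1 was -5.73 and -5.74 with anti-TIM-3 and -3.13 and -3.0 with untreated feeder cells. Its values of -2.85 and -3.78 with IL-15 alone overlapped those of untreated feeder cells. No other overlap occurred among the 6 ratios and 3 comparisons. The anti-TIM-3 values of this ratio lie closer together than the counting error of Vegfa, so their closeness does not measure precision.

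**Figure D4:**
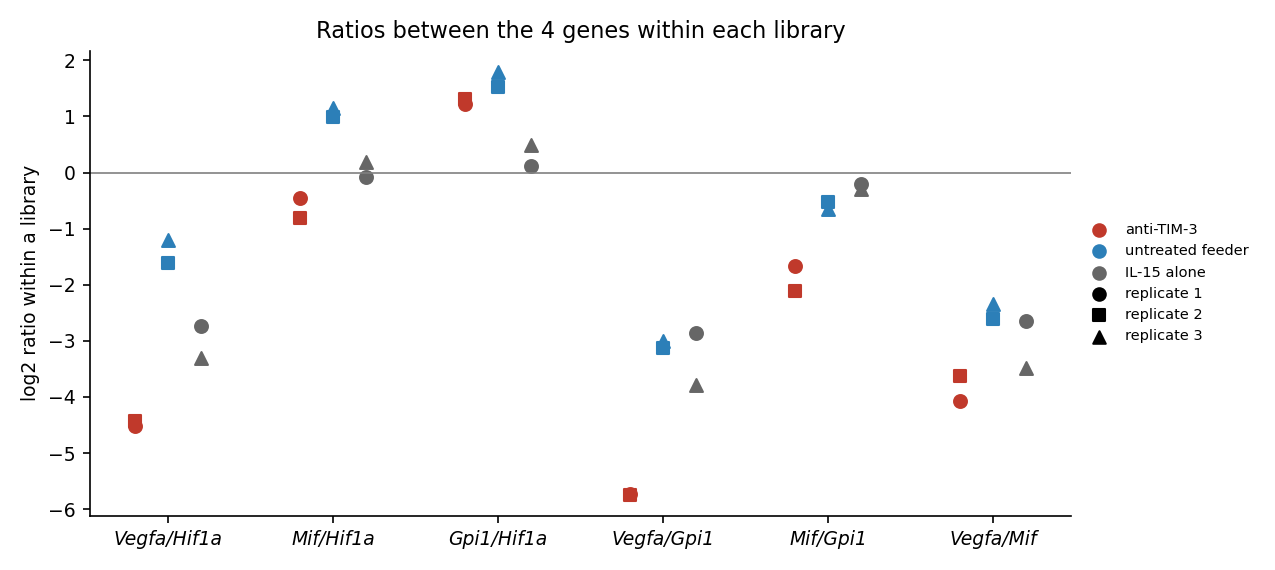
Log2 ratios between the 4 genes within each library (vertical axis), 6 ratios along the horizontal axis, with points for the 2 libraries of each group. The anti-TIM-3 libraries have the lowest Vegfa ratios, near -4.52 and -4.43 for Vegfa to Hif1a and near -5.73 for Vegfa to Gpi1.

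Within a group, the 4 genes did not move as 1 block. Between untreated feeder replicates 3 and 2, all 4 were higher in replicate 3, by 0.29 for Hif1a, 0.71 for Vegfa, 0.45 for Mif and 0.57 for Gpi1 (log2), while the median of all probes differed by 0.10. Between IL-15 replicates 3 and 1, Vegfa differed by -0.80 and Hif1a by -0.24, with Mif at 0.03 and Gpi1 at 0.13. Between anti-TIM-3 replicates 2 and 1, Mif differed by -0.45 and the other three by at most 0.11 in size. With 6 libraries of which the 2 anti-TIM-3 libraries stood apart, no correlation is given.

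The likeness of 2 genes was measured as the root mean square difference between their log2 levels over the 6 libraries, each centred on its own mean, so that 0 means parallel profiles. Among the pairs of the 4 genes, Hif1a and Gpi1 were closest at 0.58, followed by Vegfa and Mif at 0.63. Mif was at 0.71 from Hif1a and 0.72 from Gpi1, and Vegfa was farthest, at 1.27 from Hif1a and 1.23 from Gpi1. The median over all 429 other tested probes was 1.08 for Hif1a, 2.03 for Vegfa, 1.52 for Mif and 0.88 for Gpi1. By rank among the 429, Mif was the 6th nearest probe to Vegfa and Vegfa the 10th nearest to Mif. Gpi1 was 30th for Hif1a, and Vegfa was 338th for Gpi1. Of the 4, only Vegfa and Mif thus ranked among the 10 nearest profiles of each other.

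Probes near each gene were taken from the same measure. Near Hif1a were Eomes (an NK transcription factor, 0.33) and Icos (a costimulatory receptor, 0.35). Eomes had 1073 and 1106 normalised counts with anti-TIM-3, 1596 and 2004 with untreated feeder cells, and 2256 and 2254 with IL-15 alone, the same order of groups as Hif1a. Nearest to Vegfa were Klrg1 (an inhibitory lectin-like receptor, 0.40), Klra2 (of the Ly49 receptor family, 0.44) and Spp1 (osteopontin, 0.53). Klrg1 had 65.3 and 46.9 normalised counts with anti-TIM-3, 386 and 903 with untreated feeder cells, and 880 and 426 with IL-15 alone. Spp1 and Klra2 shared with Vegfa the order of all 4 libraries not given the antibody. Untreated feeder replicate 3 came first, then IL-15 replicate 1, untreated feeder replicate 2 and IL-15 replicate 3. Fut7, Tnfrsf9 and the housekeeping probe Eef1g, described below, had the same order, so it was not particular to these genes. For Vegfa, IL-15 replicate 1 and untreated feeder replicate 2 were nearly level, at 511 and 507 normalised counts. All these probes were picked for likeness over the same 6 libraries, so a shared order is no separate result.

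Nearest to Mif were Irf8 (an interferon regulatory factor, 0.30), Prf1 (perforin, 0.33) and Fut7 (a fucosyltransferase, 0.50). Irf8 had 244 and 227 normalised counts with anti-TIM-3, 1133 and 1836 with untreated feeder cells, and 2121 and 1726 with IL-15 alone. Nearest to Gpi1 were Klra5 (a Ly49 receptor, 0.25), Tnfrsf9 (the receptor 4-1BB, 0.27) and Eef1g (translation elongation factor 1 gamma, 0.27). Eef1g is a housekeeping probe of the panel and enters the scale, with 4209 and 4086 normalised counts with anti-TIM-3, 6355 and 7918 with untreated feeder cells, and 7059 and 5758 with IL-15 alone. Its difference of -0.77 between anti-TIM-3 and untreated feeder libraries passed the threshold (limma, adjusted p = 0.0353), the only one of the 20 housekeeping probes to do so. The profile of Gpi1 was thus closer to that of a housekeeping probe than to that of any of the other three genes.

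**Figure D5:**
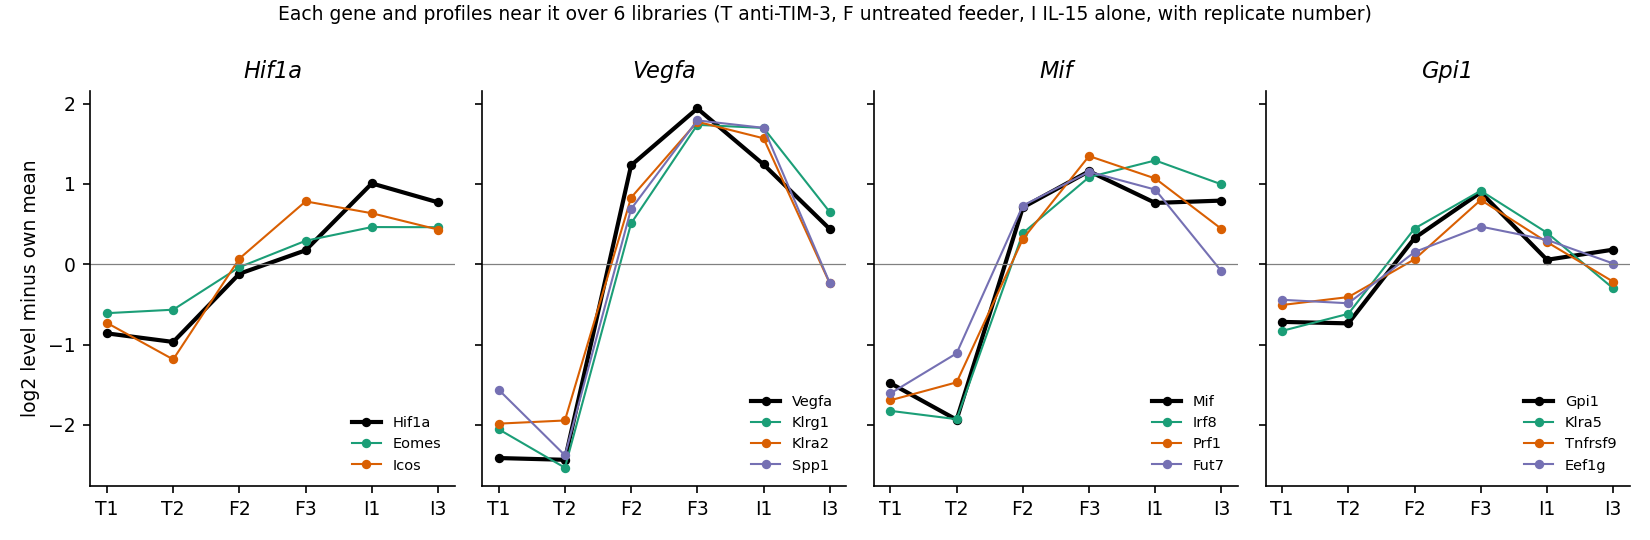
Log2 level minus its own mean over the 6 libraries for each of the 4 genes and the near profiles named in the text, libraries along the horizontal axis (T anti-TIM-3, F untreated feeder, I IL-15 alone, with replicate number). Differences of the near profiles from the gene that heads their panel are between 0.25 (Gpi1 and Klra5) and 0.53 (Vegfa and Spp1) as a root mean square.

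Of 112 further genes in the lists of the pathways around these 4, the panel measured 24, and 21 had enough counts to test. In anti-TIM-3 against untreated feeder libraries 3 of the 21 rose and 2 fell (23.8%), beside 38.6% called among all 430 probes, and the median was 0.26, beside 0.47 over all probes. Rela, the p65 subunit of NF-kB and an activator of Hif1a transcription, had 553 and 734 normalised counts with anti-TIM-3 and 263 and 289 with untreated feeder cells. It rose by 1.21 ± 0.21 (log2, limma, adjusted p = 0.0104). That call was lost by positive controls (adjusted p = 0.410) and with the replicate number as a block (0.0563). The Rela difference was 0.72 by median of ratios and 0.70 by positive controls. None of these 5 calls was kept without untreated feeder replicate 3 or without anti-TIM-3 replicate 2, and 1 was kept without untreated feeder replicate 2. In the comparison as a whole, the number of calls was 0, 43 and 63 of 430 without these libraries, in the same order, against 166 with all 6.

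Of the MIF receptors, 1 of the 2 tested passed as higher with anti-TIM-3 in both comparisons. Among all 430 probes, 31.4% did so against untreated feeder cells and 44.0% against IL-15 alone, so nothing is read from this count. Cd74, the cell surface receptor of MIF and the invariant chain of class II molecules, had 435 and 460 normalised counts with anti-TIM-3, 118 and 22.2 with untreated feeder cells, and 12.5 and 45.4 with IL-15 alone. The untreated feeder libraries were far apart from each other. Cd74 rose by 3.13 ± 0.90 against untreated feeder cells (limma, adjusted p = 0.0372) and by 4.23 ± 0.90 against IL-15 alone (adjusted p = 0.0116). Without IL-15 replicate 1 or without anti-TIM-3 replicate 2 the second call was lost (adjusted p = 0.0655 and 0.0524). The first call was lost by median of ratios (adjusted p = 0.0837), by total count (0.0825), by positive controls (0.128) and with the negative controls subtracted (0.0556). With the replicate number as a block, both calls were lost (limma, adjusted p = 0.0981 and 0.0784). Cxcr4, the other MIF receptor on the panel, differed by 0.17 ± 0.60 and did not pass.

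Of the hypoxia-induced genes besides the 4, 6 were tested, and 1 rose and 2 fell with anti-TIM-3, beside 31.4% higher and 7.21% lower among all 430 probes. Lgals3, galectin-3, had 4150 and 1625 normalised counts with anti-TIM-3, 10827 and 15305 with untreated feeder cells, and 12284 and 4522 with IL-15 alone, and fell by 2.31 on the log2 scale against untreated feeder cells (SE 0.61, limma, adjusted p = 0.0286). Tfrc, the transferrin receptor, had 1827 and 700 normalised counts with anti-TIM-3, against 3458 and 3531 with untreated feeder cells, and fell by 1.63 (SE 0.44, adjusted p = 0.0315). Both fell under every scale tried. Nt5e, the 5′-ectonucleotidase CD73, rose by 1.54 ± 0.48 (adjusted p = 0.0464) on the housekeeping scale only, at 57.4 and 104 normalised counts with anti-TIM-3 against 28.7 and 24.7 with untreated feeder cells. Its adjusted p was 0.151 by median of ratios, 0.0817 by total count and 0.292 by positive controls. The median of the 6 genes was 0.03, beside 0.47 over all probes.

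Of the 9 listed HIF subunits, oxygen sensors and their partners, the panel measured only Hif1a and Vhl. Vhl, which marks HIF-1 alpha for degradation, differed by 0.14 ± 0.37 at 42 to 63 recovered counts per library and did not pass. Vegfc, the lymphangiogenic relative of Vegfa, had 171 and 156 normalised counts with anti-TIM-3, 147 and 145 with untreated feeder cells, and 165 and 148 with IL-15 alone. Its difference of 0.17 ± 0.20 did not pass, although Vegfa, a ligand of the same family, was 16.1-fold lower in the same libraries. Gpi1 was the only one of 22 listed genes of glycolysis and glucose uptake on the panel, so nothing can be said of glycolysis as a pathway. Of 14 listed genes of other central metabolism 5 were tested, all of them housekeeping probes that set the scale, and none passed. Among 7 genes upstream of HIF-1 and MYC, Rela alone passed against untreated feeder cells, beside 38.6% of all 430 probes. Myc, at 0.37 ± 0.21, and Stat3, at 0.34 ± 0.24, did not pass.

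Against IL-15 alone, 4 of the 21 rose and 1 fell with anti-TIM-3 (23.8%), beside 50.9% of all probes, with a median of 0.37 beside 0.70. Rela rose by 1.15 ± 0.21 (limma, adjusted p = 0.00747) and Nt5e by 2.18 ± 0.48 (adjusted p = 0.0123), and Tfrc fell by 1.60 (SE 0.44, adjusted p = 0.0257). The Nt5e call was lost without anti-TIM-3 replicate 2 (adjusted p = 0.0730) and by positive controls (0.0677). The Tfrc call was lost without IL-15 replicate 1 (adjusted p = 0.0822), without untreated feeder replicate 2 (0.0549) or 3 (0.0541) and without anti-TIM-3 replicate 2 (0.0600). The Rela call was lost by median of ratios (adjusted p = 0.0815), total count (0.0556) and positive controls (0.642). Of the 21, 3 passed without IL-15 replicate 1 and 2 without anti-TIM-3 replicate 2. Over all 430 probes, 113 passed without that library, against 219 with all 6. None of the 21 passed between untreated feeder and IL-15 alone (limma), with a median of 0.05 beside 0.19.

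The sample is labelled as purified NK cells, and all 10 NK markers of the list were measured. Their summed level was 90292 to 93732 normalised counts with anti-TIM-3, 77250 to 97247 with untreated feeder cells and 65718 to 65857 with IL-15 alone. Of the 10, 4 rose with anti-TIM-3 against untreated feeder cells (limma), namely Klrb1c (log2 difference 2.03), Itga2 (1.99), Ncr1 (1.53) and Tbx21 (1.44). The 2 that fell were Prf1 (-2.41) and Eomes (-0.72). Among all 430 probes, 31.4% passed as higher and 7.21% as lower in this comparison. Higher calls over all probes went from 135 on the deposited scale to 53 by median of ratios and 32 by positive controls. Of 7 T cell markers only Cd3d was measured, at 41.7 to 67.6 with anti-TIM-3, 188 to 190 with untreated feeder cells and 22.5 to 64.4 with IL-15 alone, and it fell with anti-TIM-3 against untreated feeder cells (log2 difference -1.83, limma, adjusted p = 0.0396). B cell marker Ms4a1 was at 9.18 to 17.3 in all libraries. Of 12 myeloid and dendritic markers 7 were measured. They summed to 547 to 668 with anti-TIM-3, 322 to 378 with untreated feeder cells and 164 to 219 with IL-15 alone. Against untreated feeder cells 2 of the 5 tested (H2-Aa and Itgax) rose, beside 31.4% higher among all probes. Of 9 markers of the feeder line 2 were measured, Icam1 and Cd86, and they summed to 503 to 1064 with anti-TIM-3, 138 to 183 with untreated feeder cells and 90.1 to 135 with IL-15 alone. Icam1, which NK cells also carry, made up most of these sums and rose by 2.37 against untreated feeder cells (limma, adjusted p = 0.0104), and Cd86 had 6 to 24 recovered counts per library. Pecam1, the 1 of 5 endothelial markers measured, stood at 702 to 794 with anti-TIM-3, 953 to 1793 with untreated feeder cells and 944 to 2160 with IL-15 alone. The part of these markers in the differences of the 4 genes was not tested.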

How the data were processed

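RNA of 6 libraries of purified mouse NK cells was counted on a NanoString nCounter panel of 532 probes, of which 498 were endogenous, 20 housekeeping and 14 controls. The authors deposited log2 values per library. No header or label states their scaling, and the values show 1 factor per library that makes the mean log2 level of the housekeeping probes equal. The labels' protocols describe quantitative PCR, but the deposited probes are those of a NanoString panel. Whole counts were recovered from the smallest step of each deposited library, with 100% of values whole within 0.01. Counting intervals are exact Poisson intervals and cover counting error only. The authors' deposited table of 1 comparison gives log2 fold changes with a t score, p-value and q-value, and names its groups by number alone. The submitters' processing notes name limma, without a version. A further 18 columns named by instrument lane were not used, since no label ties a lane to a sample.

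Groups were taken from the expansion method and treatment labels. All 3 groups entered 1 linear model of the log2 values, without a pseudocount, in limma 3.58.1 (R 4.3.3) with a variance trend and robust moderation. A probe was kept where 2 or more libraries reached 20 recovered counts (430 of 518), and Benjamini-Hochberg adjustment ran over all kept probes, with a threshold of 0.05. The script was tested on simulated data. The genes and lists were chosen with earlier results of these data known. Named genes were the 4 genes, their 3 nearest profiles each, and list genes that passed in a comparison or, in lists where none did, up to 4 of the largest differences. Some genes that this rule selects are not reported here. Polr1b, and the markers named singly, were named after their values were seen. Alternatives were other scales, subtraction of the negative controls, other count minimums, plain moderation, a replicate block and leaving out each library. Promoter sequences came from RefSeq on GRCm38.p6.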

Additional observations from a re-analysis of the deposited data

How the results depend on the processing

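The log2 differences of the 4 genes against untreated feeder cells and against IL-15 alone were negative with anti-TIM-3 under every alternative run, and their size depended on the scale. Against untreated feeder cells, Hif1a, Vegfa, Mif and Gpi1 stood at -1.43, -4.50, -3.13 and -1.83 by median of ratios and at -1.45, -4.52, -3.15 and -1.84 by positive controls. By total count, Hif1a stood at -1.20 and Gpi1 at -1.60. Against IL-15 alone, the 4 genes stood at -2.47, -3.93, -3.16 and -1.52 by median of ratios, at -2.34, -3.80, -3.02 and -1.38 by total count and at -2.54, -4.0, -3.22 and -1.58 by positive controls. These scales also moved the median difference of all probes between anti-TIM-3 and untreated feeder libraries, which was 0.47 on the deposited scale, -0.03 by median of ratios, 0.21 by total count and -0.04 by positive controls.

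Between untreated feeder and IL-15 alone, Hif1a stood at -1.04 by median of ratios, -1.14 by total count and -1.09 by positive controls, and Gpi1 at 0.21 by total count. The difference of Mif changed sign, to -0.0229 by median of ratios, -0.12 by total count, -0.0725 by positive controls and -0.0707 without untreated feeder replicate 3. The cause of these moves was not tested.

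With 1 library left out, the lone library of a group is assumed to vary like the others. The differences of anti-TIM-3 from untreated feeder cells then ran from -1.09 to -0.80 for Hif1a, -4.36 to -3.66 for Vegfa, -2.87 to -2.41 for Mif and -1.62 to -1.05 for Gpi1. Those from IL-15 alone ran from -1.92 to -1.68, -3.67 to -2.86, -2.71 to -2.26 and -0.91 to -0.78 in the same order of genes. Between untreated feeder and IL-15 alone they ran from -1.01 to -0.71, 0.34 to 1.15, -0.07 to 0.38 and 0.21 to 0.78. Probes past the threshold ranged over 0 to 171, 113 to 199 and 0 to 7 for these comparisons, with 0 and 63 without untreated feeder replicates 3 and 2, 43 and 113 without anti-TIM-3 replicate 2 and 7 without IL-15 replicate 3. Pathway genes that passed ranged over 0 to 5, 2 to 7 and 0 to 0.

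Against untreated feeder cells, 166 probes passed on the deposited scale, 102 by median of ratios, 99 by total count and 69 by positive controls. Against IL-15 alone 219 passed on the deposited scale, 129 by total count and 94 by positive controls, and between untreated feeder and IL-15 alone 1 passed by positive controls. Of the 21 pathway genes, 2 passed by positive controls and 3 with the negative controls subtracted against untreated feeder cells, and 9 by median of ratios and 3 by positive controls against IL-15 alone. The replicate numbers come from the sample titles. Deviations from the group means of libraries of the same number correlated at r = 0.08, 0.04 and -0.41 over probes. With 2 libraries per group, these values cannot show whether a number marks a shared animal or culture. With the replicate block 61 probes and 2 pathway genes passed against untreated feeder cells, and 76 probes and 0 pathway genes against IL-15 alone. The low Vegfa counts with anti-TIM-3 limit the precision of its differences. With the negative controls subtracted, the Vegfa difference of anti-TIM-3 from untreated feeder cells was -4.28, against -4.01 on the deposited scale.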
